A study of Mus musculus with 15 samples.

Results

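The genes described here are 40 mouse genes whose products detect, signal or repair DNA double-strand breaks, out of 41388 genes listed in the count tables. They were chosen by name, from their known place in homologous recombination, the Fanconi anemia pathway, break signalling or non-homologous end joining. Earlier results of these data were known when they were chosen. All 40 were found in the tables under the listed symbol, and all 40 passed the filter on low counts that left 13904 genes for testing. RNA was sequenced from A20 cells, a B cell lymphoma line of BALB/c mice, and from clones of the line that had been edited with CRISPR/Cas9 in exon 6 (E6.1 and E6.2) or exon 7 (E7.1 and E7.2) of *Foxp1*, a forkhead transcription factor. Each of the 5 lines was represented by 3 libraries from separate passages, 15 in all, and no line received any treatment. The parental line is labelled wild type and was not cloned, whereas each edited line grew from 1 cell that had received the Cas9 and guide plasmid by electroporation, so a difference between a clone and parental cells cannot be told apart from a difference that the founding cell already carried. With 2 clones per exon, the tests below treat libraries as replicates and do not sample clones.

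A double-strand break can be repaired along several routes. In non-homologous end joining the broken ends are bound, trimmed and ligated directly, at any stage of the cell cycle. In homologous recombination the ends are cut back to single strands, a recombinase is loaded with the help of the BRCA proteins, and the sister chromatid serves as the template, so this route works in S and G2 phase. The Fanconi anemia proteins act where replication forks meet crosslinked DNA and hand the break over to recombination. B cells depend on end joining to assemble their antigen receptor genes and to switch antibody class, and loss of end joining genes blocks lymphocyte development.

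Library totals ranged from 26328054 to 39181530 counted read pairs, and the smallest level that 3 counts can show was 0.0751 to 0.118 CPM (counts scaled to a common library size after TMM normalization), which covers counting error only. Every repair gene had at least 76 counts in every library. *Foxp1* was measured at 138 ± 32.7 CPM (SD, n = 3) in parental cells, 43.0 ± 8.19 in E7.2, 56.8 ± 13.0 in E7.1, 106 ± 2.38 in E6.2 and 104 ± 4.602 in E6.1. Its counts fell in E7.1 (adjusted p = 0.00688 from edgeR) and E7.2 (adjusted p = 0.00116) and were not called in E6.1 (adjusted p = 0.765) or E6.2 (adjusted p = 0.417), and a frameshift need not lower the transcript, so the count does not check the labels of the E6 clones. The 10 B cell markers examined summed to 3800 to 5316 CPM in every library, against at most 3.81 CPM for 6 T or NK cell markers (*Cd3e* and *Nkg7* were at 0 in all 15 libraries), 8.74 CPM for 6 myeloid markers and 4.12 CPM for 6 stromal or epithelial markers. Of the 10, *Cd74* had 1975.4 to 3204.5 CPM and *Ptprc* 438.7 to 826.4 CPM, whereas *Pax5* had 10.1 to 44.5 and *Ebf1* 10.2 to 24.1 CPM. In replicate 3 of E6.2 *Ptprc*, *Cd79b*, *Pax5* and *Ebf1* were at their lowest and *Blnk* at its highest of the 15 libraries. Replicate 3 of E7.2 and, less far, replicate 3 of E6.2 stood apart from the other libraries of their lines, with the lowest TMM factors of the 15 (0.826 and 0.906). Results that rest on them are given with and without them, a choice made after their values were seen.

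The repair genes covered a wide range of expression. In parental cells their level per gene length, as FPKM (normalized CPM divided by the exonic length in kilobases), ran from 1.46 for *Fancc* to 49.7 for *H2afx*, which lie at the 27.0 and 90.7 percentile of the tested genes. Among the sensors and signalling genes, *H2afx*, the histone variant that is phosphorylated around a break, had the highest level, at 69.4, 45.0 and 34.7 FPKM in the parental replicates 1 to 3. *Atr*, a kinase that responds to single-stranded DNA, had the lowest level of that group, at 7.65, 7.03 and 7.01 FPKM. The *H2afx* libraries differed by more than the *Atr* libraries, so the margin between the highest gene and its neighbours depended on the replicate. In the end joining group the order ran from *Xrcc5*, a subunit of the Ku heterodimer that binds broken ends, at 49.7, 38.4 and 38.9 FPKM, to *Nhej1*, a scaffold for the ligase, at 2.24, 3.13 and 3.57 FPKM. *Xrcc6*, the partner of *Xrcc5* in the heterodimer, lay below it at 18.3 ± 1.51 FPKM (SD, n = 3).

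In the homologous recombination genes, *Rbbp8*, which starts the cutting back of the ends, was highest in the resection group at 29.5, 33.2 and 36.8 FPKM, and *Mre11a*, the nuclease of the MRN complex, was lowest at 13.9, 15.03 and 15.2 FPKM. *Brca1* led the BRCA mediators at 15.1, 17.8 and 15.7 FPKM, and *Palb2*, which bridges *Brca1* and *Brca2*, was lowest at 4.40, 3.70 and 3.39 FPKM. The paralogs of the recombinase were expressed at lower levels, from 2.78, 2.17 and 1.36 FPKM for *Xrcc3* to 9.22, 7.93 and 9.90 FPKM for *Rad51b*. The annealing and strand exchange group ran from 7.24, 5.30 and 4.61 FPKM for *Rad54l*, a DNA translocase of strand exchange, to 6.25, 8.76 and 10.3 FPKM for *Rad52*, which anneals single strands. Of the Fanconi anemia genes, *Fancl*, the ubiquitin ligase of the core complex, was highest at 13.1, 14.5 and 16.2 FPKM and *Fancc*, another core subunit, was lowest at 1.85, 1.38 and 1.15 FPKM. The 5 resection and dissolution genes, from 14.7 FPKM up, all had higher parental means than the paralogs, the annealing and strand exchange genes and the Fanconi anemia genes, although the nearest of these, *Fancl* at 14.6 FPKM, differed from *Mre11a* by less than its spread between libraries.

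**Figure D1:**
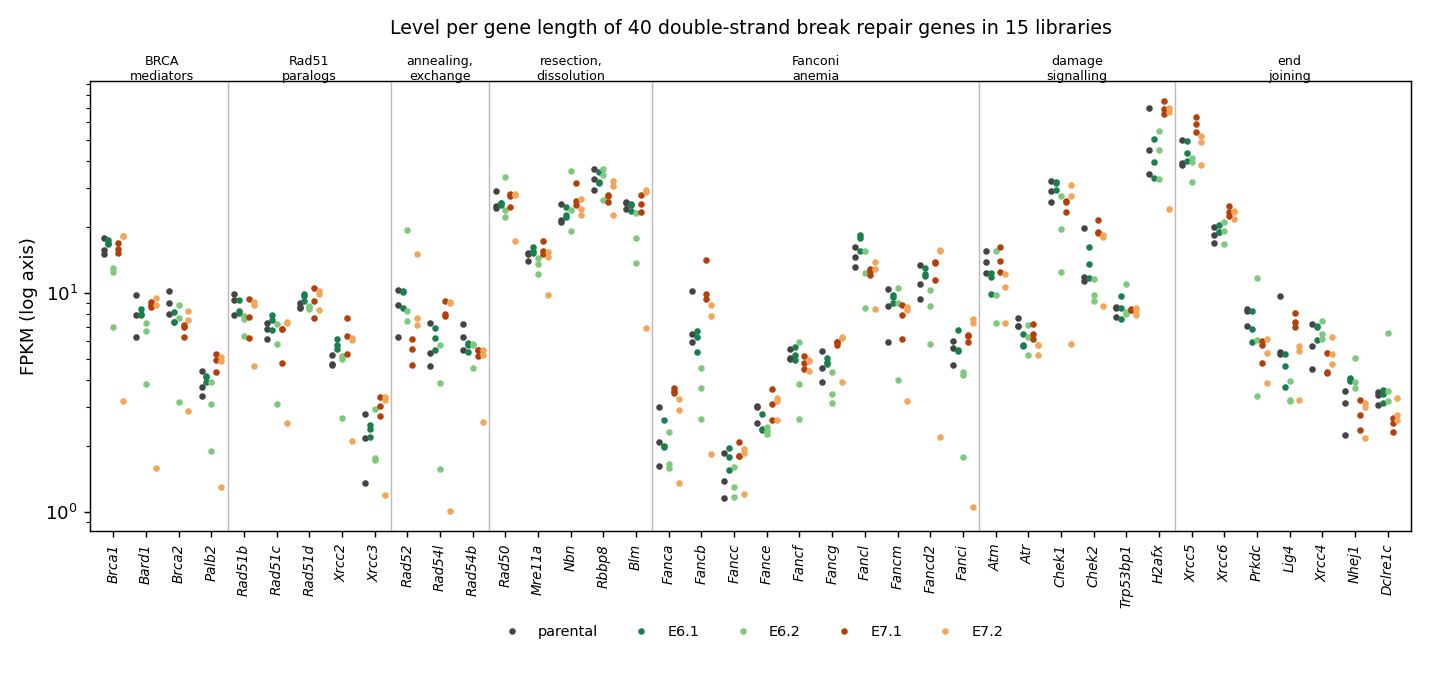
Level per gene length (FPKM, log axis) of the 40 repair genes, 1 point per library, coloured by line and grouped by role. H2afx and Xrcc5 were highest and Fancc lowest in parental cells, and the isolated low points in many genes are replicate 3 of E7.2 and replicate 3 of E6.2.

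The first question was whether disruption of *Foxp1* changed these genes. None of the 40 was called against parental cells in any clone by edgeR's quasi-likelihood test at an adjusted p under 0.05. Of all 13904 genes, 0.295% were called in E7.2, 1.22% in E7.1, 1.17% in E6.2, 0.324% in E6.1 and 0.503% for the mean of the 4 clones, so on 40 genes a count of 0 is near what the background share gives. At an unadjusted p under 0.05 there were 3 repair genes for E7.2, 3 for E7.1, 2 for E6.2, 1 for E6.1 and 3 for the mean, where 1853, 2774, 1815, 933 and 1376 of all genes fell below it. Libraries of the clone and of parental cells did not overlap for 5 of the 40 with E7.2, 12 with E7.1, 8 with E6.2 and 5 with E6.1, where 24.2%, 32.0%, 14.7% and 22.5% of all genes did not. DESeq2 called 0 repair genes in E6.1, in E7.2 and for the mean of the clones, where it called 155, 254 and 178 of all genes. It called *Lig4* in E6.2 and *Xrcc5* and *Xrcc6* in E7.1, where its shares of all genes called were 2.86% and 8.32%. All of these comparisons share the 3 parental libraries.

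The gene that came nearest to a call in the E6 clones was *Lig4*, the ligase that seals the ends in end joining (ENSMUSG00000049717, chromosome 8, 9970020 to 9977686, GRCm38). Its level was 40.9, 22.7 and 22.2 CPM in the parental replicates 1 to 3, 15.8, 22.3 and 19.7 CPM in E6.1 and 13.8, 16.9 and 13.7 CPM in E6.2. All E6.2 libraries lay below all parental ones, and parental replicate 1 stood above the other parental libraries. The difference was -0.95 on the log2 scale in E6.2 (SE 0.25, adjusted p = 0.112) and -0.57 in E6.1 (SE 0.25, adjusted p = 0.703), neither of which passed the test. It was called in E6.2 when the filter on low counts was removed (adjusted p = 0.0473, with 0.839% of all genes called) and by DESeq2 (adjusted p = 0.0259, with 2.86% called).

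In E7.1 the nearest to a call were the Ku genes, and *Xrcc6* was also among the nearest in E7.2. *Xrcc6* (ENSMUSG00000022471, chromosome 15, 81987835 to 82040085) was measured at 89.0, 75.5 and 81.8 CPM in parental cells, 111, 105 and 99.9 CPM in E7.1 and 105, 105 and 97.1 CPM in E7.2. *Xrcc5* (ENSMUSG00000026187, chromosome 1, 72307421 to 72394952) was measured at 127, 98.1 and 99.4 CPM in parental cells, 162.1, 139 and 151 CPM in E7.1 and 132, 125 and 97.7 CPM in E7.2. For *Xrcc6* every library of both E7 clones lay above every parental library, and for *Xrcc5* this was so in E7.1 but not in E7.2. The log2 fold changes of 0.36 for *Xrcc6* in E7.1 (SE 0.11, adjusted p = 0.103), 0.32 in E7.2 (SE 0.11, adjusted p = 0.285) and 0.48 for *Xrcc5* in E7.1 (SE 0.16, adjusted p = 0.108) did not pass the test. Both Ku genes were called in E7.1 when parental replicate 1 was left out, a fit in which 6.81% of all genes were called, against 1.22% with it.

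The remaining genes among the smallest p values were spread over the roles. *Atr* was measured at 179.7, 165 and 165 CPM in parental cells, 153, 136 and 133 CPM in E6.1 and 135, 135 and 122 CPM in E7.2, and all libraries of both clones lay below the parental ones (log2 fold changes -0.27 with adjusted p = 0.768 and -0.38 with adjusted p = 0.276). *Fancb*, an X-linked subunit of the Fanconi core complex, was measured at 30.2, 17.7 and 19.3 CPM in parental cells and 10.98, 13.5 and 7.88 CPM in E6.2, without overlap (log2 fold change -1.05, SE 0.42, adjusted p = 0.314). *Fanca*, another core subunit, was measured at 25.6, 17.6 and 13.7 CPM in parental cells and 30.2, 29.5 and 31.2 CPM in E7.1, again without overlap (log2 fold change 0.68, SE 0.29, adjusted p = 0.212). *Rad54b*, a relative of *Rad54l*, was measured at 41.7, 36.1 and 31.5 CPM in parental cells and 31.5, 29.9 and 14.8 CPM in E7.2, where the libraries overlapped (log2 fold change -0.52, SE 0.22, adjusted p = 0.349). *Nhej1* was measured at 2.51, 3.50 and 3.99 CPM in parental cells, 4.504, 4.42 and 4.55 CPM in E6.1 and 5.63, 4.11 and 4.39 CPM in E6.2, above every parental library in both E6 clones (log2 fold changes 0.43 with adjusted p = 0.840 and 0.50 with adjusted p = 0.394). None of these differences passed the test. For the mean of the 4 clones the smallest p values belonged to *Atr*, *Lig4* and *Xrcc6* (log2 fold changes -0.25, -0.47 and 0.20, with adjusted p = 0.420, 0.436 and 0.492).

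Of the 40 genes, 27 were lower than in parental cells in E7.2, 16 in E7.1, 31 in E6.2 and 15 in E6.1, whether or not called, as were 6899, 7261, 6021 and 6972 of all 13904 genes. The median log2 fold change of the 40 genes was -0.10 in E7.2, 0.050 in E7.1, -0.25 in E6.2 and 0.057 in E6.1, where the median of all tested genes lay between -0.025 and 0.059. In E6.2 the medians were -0.45 for the 4 BRCA mediators, -0.20 for the 5 recombinase paralogs, -0.23 for the 3 annealing and strand exchange genes, -0.028 for the 5 resection and dissolution genes, -0.31 for the 10 Fanconi anemia genes, -0.29 for the 6 signalling genes and 0.047 for the 7 end joining genes. Part of this lay in replicate 3: without it and replicate 3 of E7.2 the median of the 40 in E6.2 was -0.12, and that of the BRCA mediators -0.17. In E7.2 the BRCA mediators had a median of -0.29 with all libraries and 0.21 without those 2 libraries, and the Fanconi anemia genes -0.027 and 0.31. In E7.1 the Fanconi anemia genes had the highest median of the groups, 0.20, and the annealing and strand exchange genes the lowest, -0.23. The 25 proliferation and S phase genes examined had medians of 0.083 in E7.2, 0.58 in E7.1, -0.33 in E6.2 and 0.061 in E6.1, with 0 called, and their part in the repair gene levels was not tested.

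Leaving out replicate 3 of both E6.2 and E7.2 changed the count in E7.1, although neither library belongs to that clone. The fit estimates the spread of each gene from all lines together, so both libraries enter the test of E7.1. The number of genes tested also changed, and the cause was not tested. Then 7 of the 40 genes were called in E7.1 (17.5%), where 15.2% of all 14284 genes tested were called, so the share was near the background. Those higher were *Xrcc5* at 0.50 (adjusted p = 0.0181), *Xrcc6* at 0.38 (adjusted p = 0.0207), *Rad54l* at 0.57 (adjusted p = 0.0438), *Xrcc2* at 0.41 (adjusted p = 0.0394) and *Fanca* at 0.70 (adjusted p = 0.0394) on the log2 scale. Those lower were *Rad52* at -0.60 (adjusted p = 0.0342) and *Brca2*, which loads the recombinase, at -0.39 (adjusted p = 0.0321). With all libraries, log2 fold changes in E7.1 were 0.48 for *Xrcc5*, 0.54 for *Rad54l*, 0.68 for *Fanca*, -0.63 for *Rad52* and -0.41 for *Brca2*. The counts in E7.2, E6.2 and E6.1 were again 0 of 40, where 1.53%, 2.26% and 0.924% of all genes were called, as for the mean of the clones, with 1.16%, and between E7.2 and E7.1, with 0.763%.

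**Figure D2:**
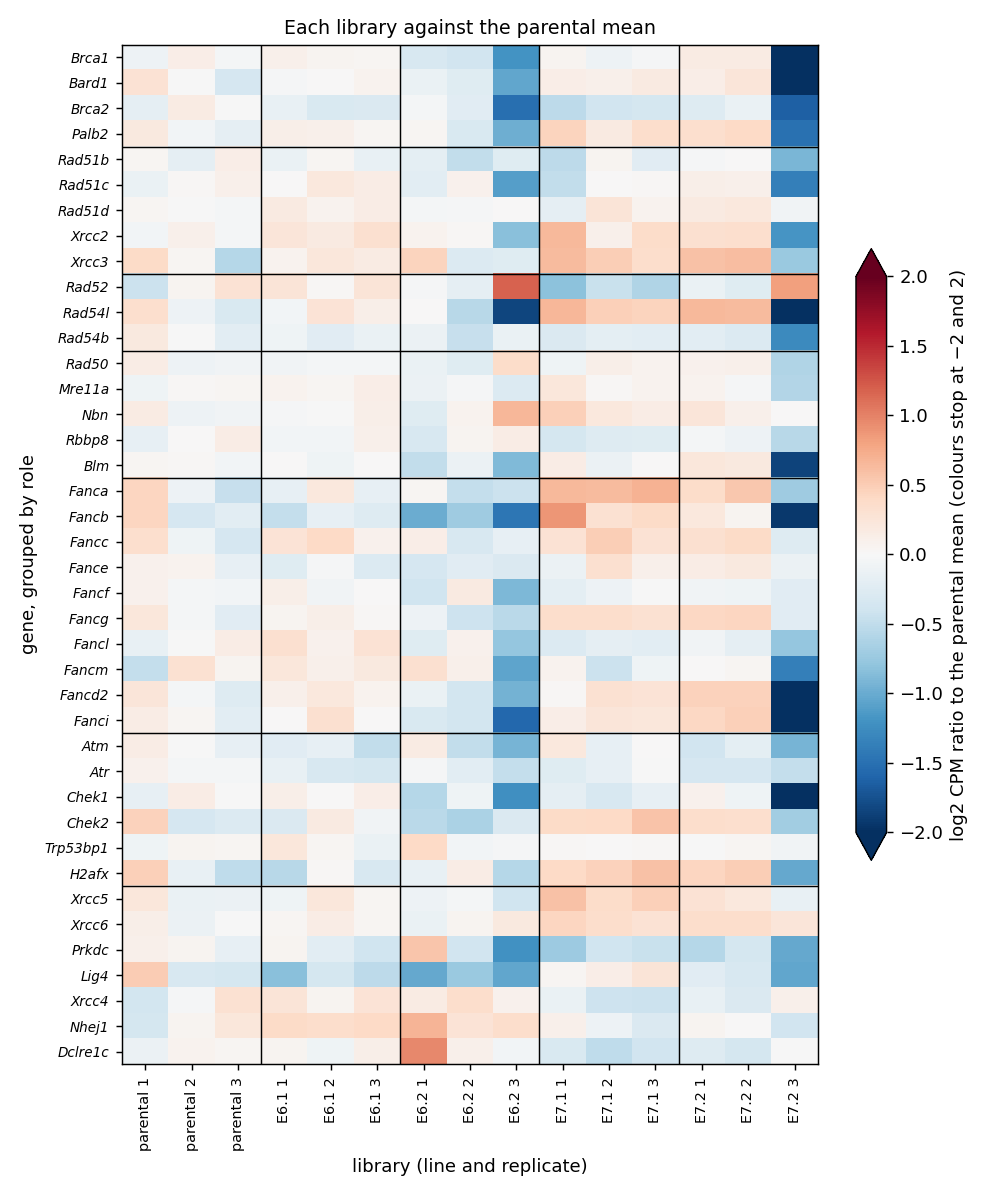
Log2 ratio of each library's CPM to the parental mean for the 40 repair genes (rows, grouped by role; columns, the 15 libraries; 0.5 CPM was added to both terms). Replicate 3 of E7.2 and replicate 3 of E6.2 are blue over most rows, and Rad52 is red in both.

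The largest differences in repair gene expression lay between passages of the same clone. In replicate 3 of E7.2, 37 of the 40 genes were below both other E7.2 libraries, a share of 92.5%, where 43.1% of the 11423 tested genes with a mean of at least 1 CPM were. Its level was under 50% of the mean of the other replicates for 18 of the 40 genes (45.0%), against 5.28% of all those genes. A single library has no replicate of its own, so these shares describe that passage and carry no test. The summed level of the 40 genes was 2548, 2547 and 1383 CPM in E7.2 replicates 1 to 3, and 2536, 2432 and 2318 CPM in parental cells.

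The members furthest down came from several role groups. *Brca1*, which with *Bard1* forms a ubiquitin ligase at the break, was measured at 155, 155 and 27.2 CPM in E7.2 replicates 1 to 3, and *Bard1* at 49.7, 53.2 and 8.98 CPM. *Fancd2* and *Fanci*, the pair that the Fanconi core complex ubiquitinates, were measured at 123, 124 and 17.4 CPM and 41.7, 43.8 and 6.03 CPM. *Rad54l* was measured at 69.6, 68.9 and 7.79 CPM, the largest ratio of the 40, with replicate 3 at 11.9% of the mean of the other replicates (a log2 ratio of -3.07). In each of these genes replicates 1 and 2 lay close together and replicate 3 far below. The checkpoint kinase *Chek1* was measured at 144, 128 and 26.9 CPM and *Blm*, the helicase that resolves joined chromatids, at 145, 142 and 34.2 CPM, with the same pattern.

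Other members stayed close to their level in the other E7.2 replicates. *Trp53bp1*, which shields ends from being cut back, was measured at 117, 120.5 and 112 CPM and *Atr* at 135, 135 and 122 CPM in E7.2. *Xrcc6* was at 92.5% and *Nbn*, the third MRN subunit, at 89.1% of the mean of the other replicates. By group, the median log2 ratio of replicate 3 to the other replicates was -2.16 for the BRCA mediators, -1.33 for the recombinase paralogs, -1.03 for annealing and strand exchange, -0.91 for Fanconi anemia, -0.84 for damage signalling, -0.61 for resection and dissolution and -0.39 for end joining, against 0.019 for all genes of at least 1 CPM. In this order end joining stood nearest to all genes, and its members ranged from -0.76 for *Lig4* to 0.31 for *Xrcc4*. In that library 3 members were above both other libraries instead (7.5%, against 46.7% of all genes of at least 1 CPM). They were *Rad52* at 25.9, 23.9 and 50.7 CPM, *Xrcc4*, the cofactor of *Lig4*, at 22.1, 19.995 and 26.3 CPM, and *Dclre1c*, the nuclease Artemis, at 25.7, 24.3 and 30.9 CPM. The 25 proliferation and S phase genes were low in the same library, with a median log2 ratio of -1.90, all 25 below both other libraries and summed levels of 6887, 6973 and 1779 CPM, while the B cell markers summed to 4612, 4748 and 5316 CPM. Of that last sum *Cd74* alone gave 3204.5 CPM. *Cd74*, *Cd79a*, *Cd79b* and *Cd22* had their highest level of the 15 libraries in replicate 3 of E7.2. The part of proliferation in the repair gene levels was not tested.

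Replicate 3 of E6.2 deviated in part alike. There 25 of the 40 genes were below both other E6.2 libraries (62.5%, against 37.8% of all genes of at least 1 CPM), with a median log2 ratio of -0.37. *Brca2* was measured at 94.5, 82.6 and 33.9 CPM in E6.2 replicates 1 to 3, *Rad54l* at 44.4, 29.8 and 12.03 CPM and *Fanci* at 25.1, 24.2 and 10.2 CPM, all lowest in replicate 3. Another 7 of the 40 were above both other E6.2 libraries (17.5%, against 44.7% of all genes of at least 1 CPM), with *Rad52* furthest up, at 27.9, 24.9 and 64.8 CPM, its highest level in the 15 libraries. The MRN subunits *Rad50*, at 128, 119 and 182 CPM, and *Nbn*, at 48.3, 60.2 and 90.9 CPM, were also highest in replicate 3 of E6.2, unlike in E7.2. The proliferation and S phase genes had a median log2 ratio of -0.23 in that library, with 13 of 25 below both other libraries. Replicate 1 of E6.2 also stood out in single genes, with *Prkdc*, the DNA-dependent protein kinase, at 154, 80.0 and 44.7 CPM and *Dclre1c* at 60.7, 33.3 and 29.7 CPM in replicates 1 to 3.

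As a measure of this spread, the median coefficient of variation of the 40 genes over 3 libraries was 30.7% in E7.2, 7.95% in E7.1, 26.2% in E6.2, 7.07% in E6.1 and 11.48% in parental cells. Over all genes of at least 1 CPM it was 15.004%, 11.9%, 23.6%, 8.29% and 13.3%. The median of the repair genes was above that of all genes in E6.2 and E7.2 and below it in the other lines. Within E7.2 the BRCA mediators varied most, with a median of 61.2%, and the end joining genes least, with 15.4%.

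**Figure D3:**
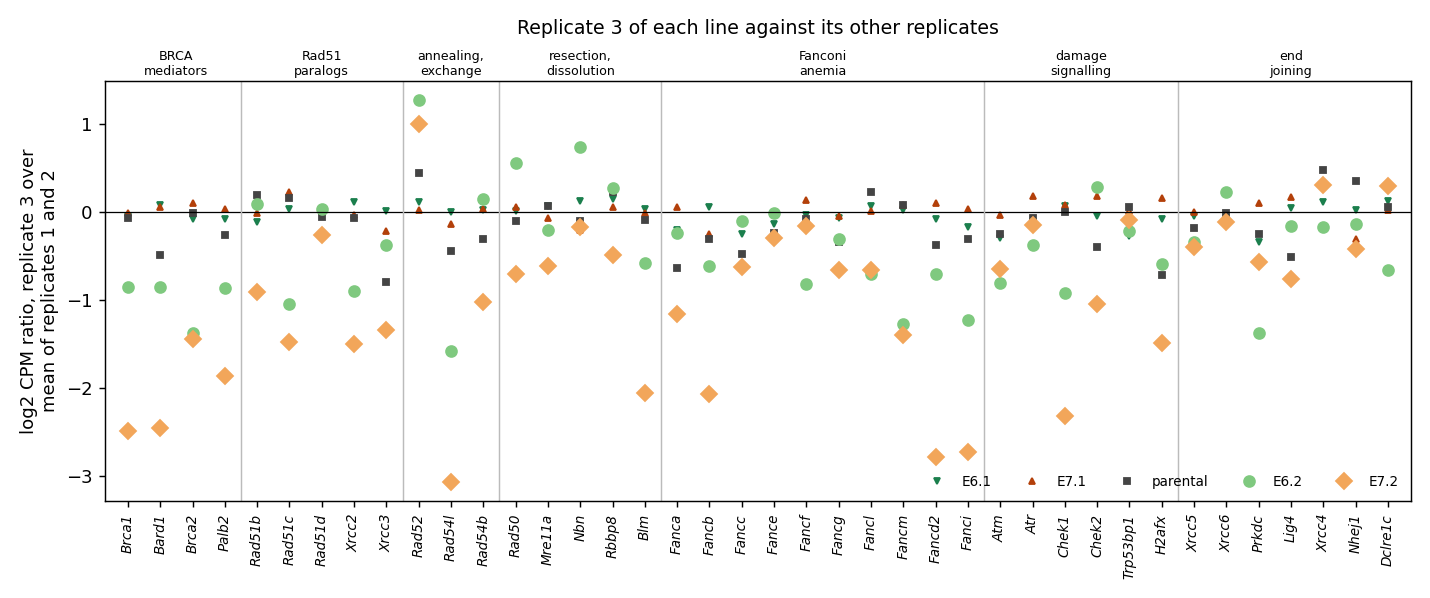
Log2 ratio of replicate 3 to the mean of replicates 1 and 2 of the same line for each repair gene, 1 point per line (0.5 CPM was added to both terms). The E7.2 points reach -3.07 for Rad54l and -2.79 for Fancd2 and lie nearest to 0 in the end joining group, while Rad52 is above 0 in both E6.2 and E7.2.

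Promoters are shown because many of these genes were low together in 1 library and because the edited gene encodes a forkhead factor, and they were searched for words of E2F and forkhead factors as a description only. The promoter here is 250 bases before to 50 bases after the RefSeq gene start on GRCm38.p6, and 31 of the 40 genes had an entry, with 35 promoters in all. *Rad51d*, *Xrcc2*, *Rad50*, *Nbn*, *Rbbp8*, *Rad54b*, *Fancd2*, *H2afx* and *Prkdc* had none. The E2F words TTTCCCGC and TTCCCGCC, on either strand and overlapping each other by 7 letters where both occur, were found in 9 of the 35 promoters, those of 9 genes, and 2.73% of all 32851 promoters of this length hold 1 of them. In replicate 3 of E7.2 the median log2 ratio to the other replicates was -1.44 for these 9 genes, from -2.455 to -0.11. For the 22 genes with a promoter and no such word it was -0.64, from -3.07 to 1.01, and for the 9 without an entry -0.70. The part of E2F factors in that library was not tested. The forkhead words TGTTTAC and TATTTAC, on either strand, were found in 2 of the 35 promoters, those of *Brca2* and *Xrcc5*, and in 6.54% of all promoters. The 3 promoters below are those with a forkhead word, and that of *Xrcc6*, the partner of *Xrcc5*, whose counted gene model starts further upstream than its RefSeq start. They read 5′ to 3′ on the strand of the gene, from chr5:150522371-150522670, chr1:72307171-72307470 and chr15:82016119-82016418, all on the plus strand, with E2F and forkhead words in capitals.
Brca2: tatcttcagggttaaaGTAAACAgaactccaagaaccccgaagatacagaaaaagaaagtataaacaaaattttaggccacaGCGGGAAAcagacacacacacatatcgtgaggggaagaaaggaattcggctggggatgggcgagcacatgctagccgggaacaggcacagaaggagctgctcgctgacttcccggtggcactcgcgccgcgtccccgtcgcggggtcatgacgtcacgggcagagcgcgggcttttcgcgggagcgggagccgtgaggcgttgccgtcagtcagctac
Xrcc5: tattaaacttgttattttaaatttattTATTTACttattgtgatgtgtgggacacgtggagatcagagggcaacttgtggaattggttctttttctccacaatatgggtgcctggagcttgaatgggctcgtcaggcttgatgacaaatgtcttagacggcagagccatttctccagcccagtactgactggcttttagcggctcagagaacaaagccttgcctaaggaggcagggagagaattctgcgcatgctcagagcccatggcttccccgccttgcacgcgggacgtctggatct
Xrcc6: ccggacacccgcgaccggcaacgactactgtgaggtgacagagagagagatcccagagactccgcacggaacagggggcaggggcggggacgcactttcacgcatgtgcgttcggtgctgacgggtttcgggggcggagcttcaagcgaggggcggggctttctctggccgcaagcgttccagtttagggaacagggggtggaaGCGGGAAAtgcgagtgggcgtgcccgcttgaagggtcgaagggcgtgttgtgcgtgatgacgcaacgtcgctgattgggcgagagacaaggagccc

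The E2F matches of the other genes are shown with 10 bases on either side, or up to the end of the promoter, with the word in capitals. They lie at chr1:71103164-71103191 (*Bard1*, minus strand), chr9:36726609-36726626 (*Chek1*, minus strand), chr5:110839821-110839848 (*Chek2*, plus strand), chrX:164980409-164980436 (*Fancb*, plus strand), chr4:43010336-43010363 (*Fancg*, minus strand), chr12:65075539-65075566 (*Fancm*, plus strand) and chr11:87404942-87404970 (*Rad51c*, minus strand).
Bard1: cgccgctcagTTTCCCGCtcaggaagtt
Chek1: agcaggttttGGCGGGAA
Chek2: gggattagccGCGGGAAAccaagacgtc
Fancb: ccggggtagaGGCGGGAAtaagtgctct
Fancg: ttcttttcagTTTCCCGCggaaccgtct
Fancm: accaatcatcTTCCCGCCgcaaaatcgg
Rad51c: cccccgcgagGGCGGGAAAagcaaggggt

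The second question was whether clones edited in exon 7 differed from clones edited in exon 6. Of the 40 repair genes, 7 were called (17.5%), against 12.1% of all 13904 genes, and 6 of the 7 belong to the end joining group, of which only *Prkdc* was not called. *Xrcc5*, *Xrcc6*, *Lig4* and *Fancg* were higher in the E7 clones, as 6.21% of all genes were, and *Xrcc4*, *Nhej1* and *Dclre1c* were lower, as 5.85% were. The calls went in both directions: the Ku subunits and the ligase were higher, and the cofactor, the scaffold and the nuclease that act with them were lower. The 17 recombination genes had 0 calls, with a median log2 fold change of 0.032, the 6 signalling genes had 0, with 0.048, and the 10 Fanconi anemia genes had 1, with 0.30 and 8 of 10 higher, beside a median of -0.033 over all genes.

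Among the genes that were higher, *Xrcc6* ranged from 74.7 to 94.2 CPM with a median of 85.1 over the 6 E6 libraries and from 97.1 to 111 CPM with a median of 105 over the 6 E7 libraries. All E7 libraries lay above all E6 libraries, as *Xrcc6* and *Nhej1* alone did of the 40, above or below, and 3.55% of all genes (log2 fold change 0.28, SE 0.081, adjusted p = 0.0418). *Xrcc5* ranged from 81.6 to 126 CPM with a median of 104 in the E6 libraries and from 97.7 to 162.1 CPM with a median of 136 in the E7 libraries, overlapping through replicates 2 and 3 of E7.2 (log2 fold change 0.36, SE 0.11, adjusted p = 0.0483). *Lig4* ranged from 13.7 to 22.3 CPM with a median of 16.3 in the E6 libraries and from 13.7 to 34.5 CPM with a median of 26.9 in the E7 libraries, again overlapping through replicate 3 of E7.2 (log2 fold change 0.59, SE 0.18, adjusted p = 0.0466). For *Lig4* the E7.1 libraries and replicates 1 and 2 of E7.2 lay above every E6 library, and the means were 28.6 ± 10.7 CPM in parental cells, 31.8 ± 2.46 in E7.1 and 20.3 ± 5.76 in E7.2 (SD, n = 3). *Fancg* (ENSMUSG00000028453, chromosome 4, 43002343 to 43010506), a subunit of the Fanconi core complex, ranged from 11.9 to 19.1 CPM with a median of 17.2 in the E6 libraries and from 14.9 to 23.9 CPM with a median of 22.6 in the E7 libraries (log2 fold change 0.44, SE 0.13, adjusted p = 0.0490).

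Among the genes that were lower, *Nhej1* (ENSMUSG00000026162, chromosome 1, 74967139 to 75125200) ranged from 4.11 to 5.63 CPM with a median of 4.46 in the E6 libraries and from 2.44 to 3.62 CPM with a median of 3.22 in the E7 libraries (log2 fold change -0.57, SE 0.17, adjusted p = 0.0448). Its E7 libraries all lay below its E6 libraries, at levels near the parental 3.33 ± 0.753 CPM (SD, n = 3). *Xrcc4* (ENSMUSG00000021615, chromosome 13, 89774027 to 90089608) was measured at 22.1, 19.995 and 26.3 CPM in E7.2, 22.2, 18.3 and 18.05 in E7.1, 27.3, 31.2 and 25.9 in E6.2 and 29.4, 25.5 and 29.8 in E6.1 (log2 fold change -0.42, SE 0.12, adjusted p = 0.0436). Its overlap came from replicate 3 of E7.2, and the parental libraries, at 18.9, 24.1 and 30.3 CPM, covered nearly the whole range. *Dclre1c* (ENSMUSG00000026648, chromosome 2, 3424131 to 3464130) was measured at 25.7, 24.3 and 30.9 CPM in E7.2, 24.9, 21.6 and 23.7 in E7.1, 60.7, 33.3 and 29.7 in E6.2 and 32.2, 29.3 and 33.6 in E6.1 (log2 fold change -0.52, SE 0.15, adjusted p = 0.0401). Replicate 1 of E6.2 was its highest library, and without that library the log2 fold change was -0.30 (adjusted p = 0.0600). *Prkdc*, at 44.7 to 154 CPM with a median of 85.2 in the E6 and 51.0 to 81.4 CPM with a median of 72.9 in the E7 libraries, was not called (log2 fold change -0.41, SE 0.23, adjusted p = 0.239).

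**Figure D4:**
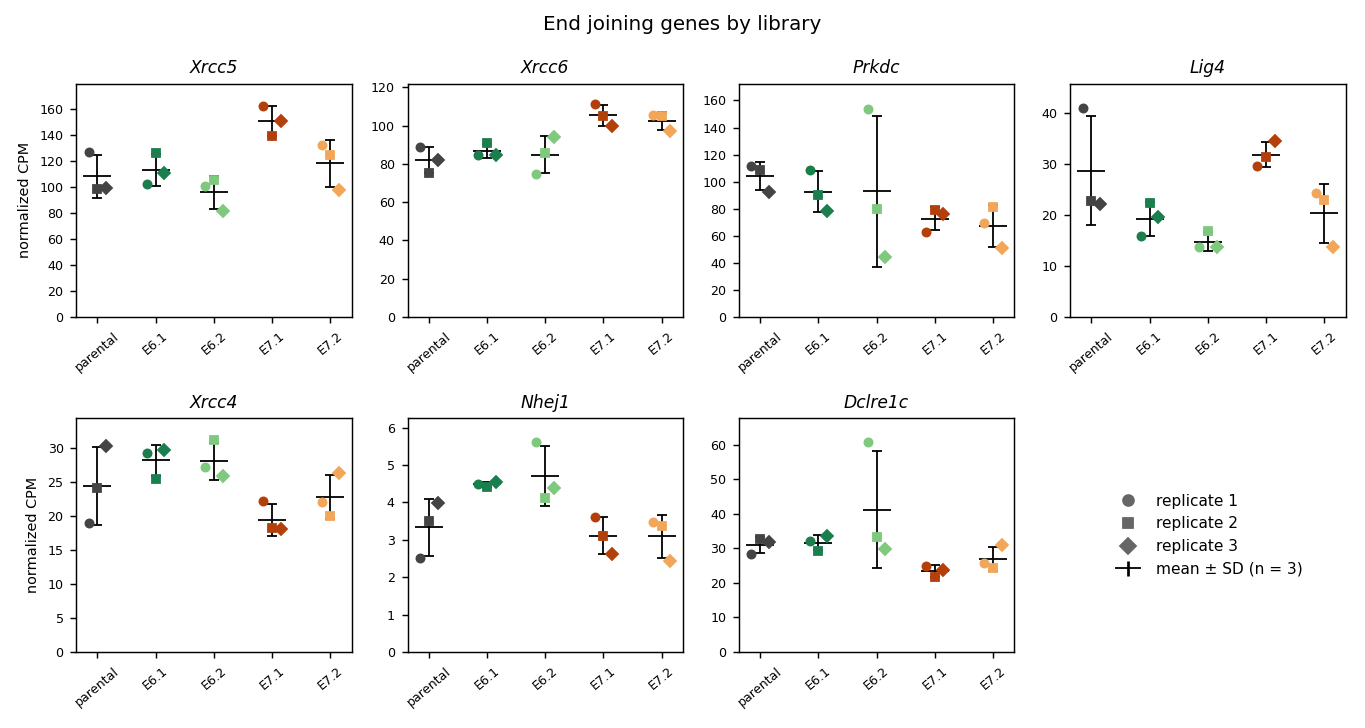
Normalized CPM of the 7 end joining genes by line; symbols mark replicates, horizontal ticks the mean and bars the SD over 3 libraries. For Xrcc6 the E7 libraries lie above and for Nhej1 below all E6 libraries.

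The calls were close to the threshold, with adjusted p from 0.0401 to 0.0490, and most single libraries decided them. None of the 40 was called without replicate 1 or 3 of E6.1 (fits in which 2.77% and 3.0% of all genes were called), without replicate 1, 2 or 3 of E7.1 (5.44%, 6.9% and 6.06%), or without replicate 1 or 2 of E7.2 (4.6% and 4.01%). There were 4 calls without replicate 2 of E6.1 (10.7% of all genes), 1 without replicate 1 of E6.2 (7.62%), 1 without replicate 2 of E6.2 (7.47%), 10 without replicate 3 of E6.2 (26.8%) and 17 without replicate 3 of E7.2 (17.7%). With all libraries there were 7 calls with glmQLFit's other method (13.0%), 6 with DESeq2's size factors (12.2%), 5 without the filter (6.17%), 11 with DESeq2 (19.3%), 3 in a fit of the 4 clones alone (11.3%) and 3 with replicate number as a block (10.1%). The direction of each of the 7 held in all 12 of the fits without 1 library and in the 7 other settings, 1 of which left out both replicate 3 libraries. These fits share most of their libraries with the main fit, so the shared direction is no separate support. Leaving out both replicate 3 libraries was decided after their values were seen. In replicate 3 of E7.2, 37 of the 40 genes were below both other libraries, so without it the E7 mean of those genes is higher. The calls of that fit are therefore a description and no separate support. With the 2 replicate 3 libraries both left out, 22 of the 40 were called (55%), where 33.1% of all genes were, with 17 higher and 5 lower in the E7 clones. All 7 end joining genes were then called, *Prkdc* at -0.46 (adjusted p = 0.0415), and so were 6 of 10 Fanconi anemia genes, all higher, among them *Fancb* at 0.96 (adjusted p = 0.00205) and *Fanca* at 0.71 (adjusted p = 0.00685). Of the others, *H2afx* at 0.63 (adjusted p = 0.0136), *Chek2*, a checkpoint kinase, at 0.75 (adjusted p = 0.00389) and *Rad54l* at 0.69 (adjusted p = 0.00346) were higher, as were *Brca1*, *Palb2*, *Blm*, *Nbn* and *Rad50*, and *Rad52* at -0.42 (adjusted p = 0.0309) was lower.

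**Figure D5:**
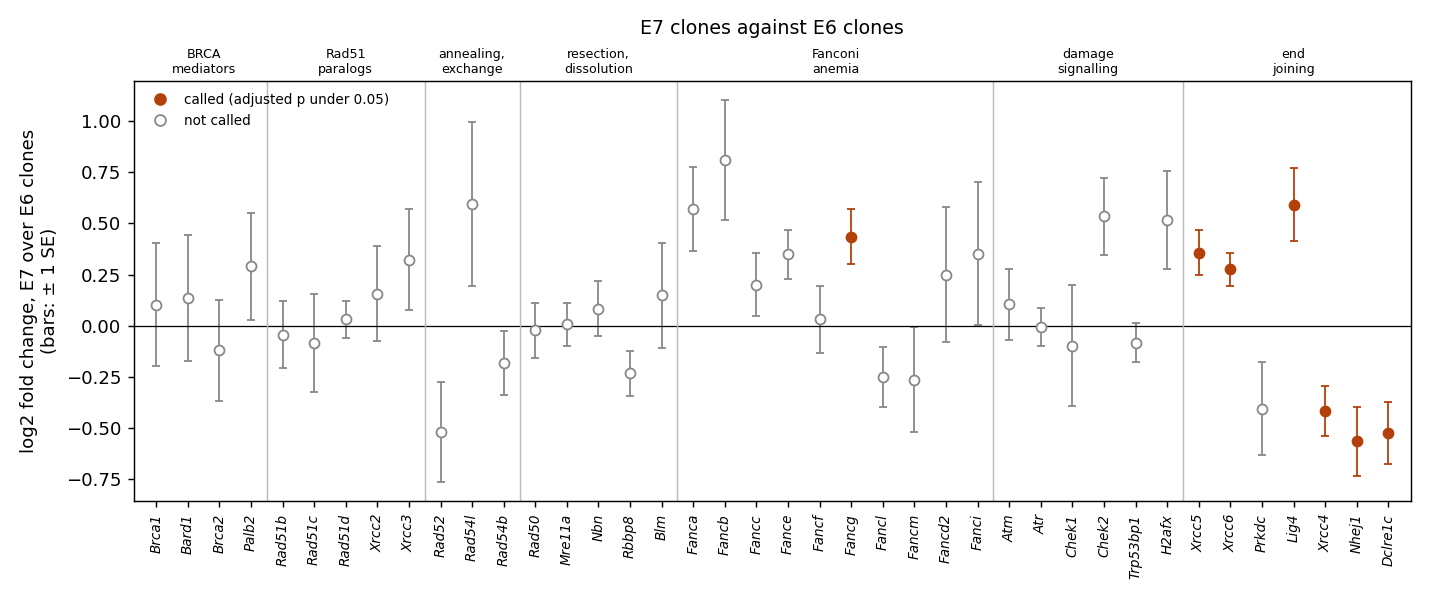
Log2 fold change of the E7 over the E6 clones for each repair gene, with bars of 1 SE and the 7 called genes filled. The called genes are Fancg and all end joining genes but Prkdc, with Lig4 the highest of them at 0.59 and Nhej1 the lowest at -0.57, and Fancb, at 0.81, was not called.

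Further genes of the same pathways were read from a list of 69, of which 68 were tested (all but *Shld3*), and 7 of the 68 (10.3%) were called between the E7 and E6 clones, where 12.1% of all genes were. *Parp1*, which binds broken strands and marks them with ADP-ribose, was higher (log2 fold change 0.63, SE 0.13, adjusted p = 0.0102), as were *Paxip1*, a partner of *Trp53bp1* (log2 fold change 0.49, SE 0.14, adjusted p = 0.0345), *Cenpx*, a partner of *Fancm* (log2 fold change 0.57, SE 0.17, adjusted p = 0.0478), and *Shld2*, a shieldin subunit that protects ends (log2 fold change 0.33, SE 0.099, adjusted p = 0.0456). The end joining accessory factors *Paxx* (log2 fold change -0.77, SE 0.20, adjusted p = 0.0272) and *Aplf* (log2 fold change -0.61, SE 0.16, adjusted p = 0.0269) were lower, as was *Shld1*, another shieldin subunit (log2 fold change -0.57, SE 0.12, adjusted p = 0.0135). Here too, genes that act in one complex, *Shld1* and *Shld2*, differed in opposite directions. None of the 68 was called against parental cells in E7.2, E7.1, E6.2 or E6.1, where 0.295%, 1.22%, 1.17% and 0.324% of all genes were. At an unadjusted p under 0.05 there were 9 in E7.2, 11 in E7.1, 9 in E6.2 and 2 in E6.1, where 1853, 2774, 1815 and 933 of all 13904 genes fell below it. Of the 25 proliferation and S phase genes, 24 were higher in the E7 than in the E6 clones, with a median log2 fold change of 0.38, and 1, *Ccne1*, was called, so these genes lay in the same direction as the Fanconi anemia genes, and their part in that difference was not tested.

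The clones of 1 exon were also compared with each other. None of the 40 genes was called between E6.2 and E6.1, where 1.24% of all genes were, or between E7.2 and E7.1, where 0.59% were. DESeq2 likewise called 0 of the 40 in both, where it called 448 and 287 of all genes. At an unadjusted p under 0.05 by edgeR there were 2 between the E6 clones and 3 between the E7 clones, where 1798 and 1846 of all genes fell below it. The smallest adjusted p was 0.318 for *Fancl*, at 61.6, 52.2 and 59.8 CPM in E6.1 and 41.5, 52.1 and 28.6 CPM in E6.2, and 0.311 for *Lig4*, whose libraries did not overlap between the E7 clones (log2 fold changes -0.51, SE 0.21, and -0.65, SE 0.25). Next came *Fancg* and *Fancb* in the E6 clones (log2 fold changes -0.42 and -0.75, adjusted p = 0.375 and 0.473) and *Rad52* and *Xrcc5* in the E7 clones (log2 fold changes 0.87 and -0.35, adjusted p = 0.325 and 0.356). Of the 40, 15 had E6.2 libraries all below those of E6.1 and 0 all above, where 10.2% and 7.34% of all genes did, and 7 had E7.2 libraries all below those of E7.1 and 1, *Rad52*, all above, where 12.7% and 12.4% did. Without the 2 replicate 3 libraries, *Brca1* was called lower in E6.2 than in E6.1, at -0.43 (adjusted p = 0.0357) on the log2 scale, where 3.39% of all genes were called.

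The positions of the genes bear on the counts in a few cases. The called end joining genes and *Fancg* lie on 6 different chromosomes, as only *Xrcc5* and *Nhej1* share one, chromosome 1, where they are less than 3 Mb apart and differed in opposite directions. The median log2 fold change between E7 and E6 clones of the tested genes within 5 Mb of each of the 7 ran from -0.086 to 0.086. Counting was not by strand and left out read pairs that overlap several genes, so the levels of *Rad54b*, with 35.9% of its exonic bases inside another gene, *Rad54l* with 15.4%, *Trp53bp1* with 15.04%, *Fancf* with 14.96%, *Fanci* with 14.8% and *Fancl* with 13.7% are less certain. Of the called genes, *Xrcc6* had 7.68%, *Dclre1c* 3.83% and *Xrcc4* 2.66%, and the others none.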

How the data were processed

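The authors deposited raw counts of read pairs per gene for each of 15 libraries. Per the file headers and the submitters' processing notes, reads were aligned with HISAT to GRCm38 (mm10) with ERCC spike-in sequences, and pairs were counted with featureCounts 1.5.0 without strand, leaving out multi-mapping and multi-overlapping pairs and keeping duplicates. The 92 spike-ins had a total of 0 and were left out.

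From these counts, genes were filtered with filterByExpr, scaled by TMM and tested with edgeR 4.0.16 (R 4.3.3) by the quasi-likelihood test, with all 15 libraries in 1 fit and line as the factor. P values were adjusted by Benjamini-Hochberg over the 13904 genes tested in each of 8 comparisons, and genes were called at an adjusted p under 0.05. CPM and FPKM use the TMM-scaled library sizes and the deposited gene length. Ratios between libraries of 1 line used 0.5 CPM added to both terms. Library totals of 26328054 to 39181530 counts put the count of 3 at 0.0751 to 0.118 CPM. The code was tested on simulated data.

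Full values were given for members called in a comparison, for the 3 members of smallest p in each, and for the highest and lowest by parental FPKM in each role group; other members described in replicate 3, without 2 libraries or by promoter were chosen after their values were seen. The members and all gene lists were chosen with earlier results of these data known. Alternatives were DESeq2 1.42.0 as test or for size factors, no filter, the other quasi-likelihood method of glmQLFit, a replicate block, a fit of only the lines compared, and leaving out each library of the lines compared. Leaving out the third replicates of clones E7.2 and E6.2 together was added after seeing the data. Promoter sequences came from RefSeq (GRCm38.p6).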

Additional observations from a re-analysis of the deposited data

Results flagged for a closer look

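The 7 genes below differed between the clones edited in exon 7 and those edited in exon 6 by the test of that difference (edgeR's quasi-likelihood test). That test called 12.1% of all 13904 genes. The 7 other settings include the fit without replicate 3 of both E6.2 and E7.2, chosen after the values were seen. It called all 7 genes and 33.1% of all genes, and is no separate support. The 12 fits include those without 1 of these 2 libraries, with 26.8% (E6.2) and 17.7% (E7.2) of all genes called. *Xrcc5* was higher in the E7 clones by a log2 fold change of 0.36, passed the test in 3 of 12 fits that left out 1 of their libraries, with values from 0.32 to 0.44, and in 5 of 7 other settings, with adjusted p from 0.00797 to 0.0741. *Xrcc6* was higher in the E7 clones by a log2 fold change of 0.28, passed the test in 2 of 12 fits that left out 1 of their libraries, with values from 0.26 to 0.33, and in 5 of 7 other settings, with adjusted p from 0.00299 to 0.147. *Lig4* was higher in the E7 clones by a log2 fold change of 0.59, passed the test in 3 of 12 fits that left out 1 of their libraries, with values from 0.52 to 0.73, and in 6 of 7 other settings, with adjusted p from 0.00880 to 0.0558. *Fancg* was higher in the E7 clones by a log2 fold change of 0.44, passed the test in 3 of 12 fits that left out 1 of their libraries, with values from 0.38 to 0.56, and in 4 of 7 other settings, with adjusted p from 0.00370 to 0.0625. *Xrcc4* was lower in the E7 clones by a log2 fold change of -0.42, passed the test in 3 of 12 fits that left out 1 of their libraries, with values from -0.47 to -0.37, and in 5 of 7 other settings, with adjusted p from 0.0134 to 0.0927. *Nhej1* was lower in the E7 clones by a log2 fold change of -0.57, passed the test in 1 of 12 fits that left out 1 of their libraries, with values from -0.62 to -0.46, and in 4 of 7 other settings, with adjusted p from 0.0101 to 0.118. *Dclre1c* was lower in the E7 clones by a log2 fold change of -0.52, passed the test in 4 of 12 fits that left out 1 of their libraries, with values from -0.61 to -0.30, and in 6 of 7 other settings, with adjusted p from 0.00438 to 0.0663. With 2 clones per exon, the exon edited and the clones' own differences cannot be told apart.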

How the results depend on the processing

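Of the values for single repair genes, 4417 stayed on the same side of the threshold under the alternatives, those not called within 1 SE. Another 174, not called either way, changed by more than 1 SE. A further 49 came to pass the test and 79 no longer passed it. Only the 7 genes called between E7 and E6 clones could lose a call, and each lost it in most fits without 1 library. Among values called with the main settings or under the alternative, 1 reversed: *Rad50* between E7 and E6 clones, -0.022 with all libraries and 0.21 (adjusted p = 0.0496) without replicate 3 of E6.2 and E7.2. Changes of sign among values not called were not counted. Of the 40 repair genes, DESeq2 called 11 between E7 and E6 clones, 2 in E7.1 and 1 in E6.2 (19.3%, 8.32% and 2.86% of all genes). The edgeR counts were 7, 0 and 0 (12.1%, 1.22% and 1.17% of all genes). No filter gave 1 in E6.2 (0.839%), and a fit of only the 4 clones gave 3 between E7 and E6 (11.3%). Without the 2 libraries there were 7 in E7.1, 22 between E7 and E6, and 1 between E6.2 and E6.1 (15.2%, 33.1% and 3.39% of all genes). Leaving out single libraries gave 0 to 2 in E7.1 and 0 to 17 between E7 and E6, where 30 to 968 and 399 to 3847 of all genes were called. With replicate number as a block there were 3 between E7 and E6 (*Dclre1c*, *Fancg* and *Xrcc5*), where 10.1% of all genes were called. With the block, no other count of repair genes changed by over 1.5 times. Libraries of the same number correlated at a mean of 0.0531 over 30 pairs (-0.124 to 0.426), against -0.0249 for other pairs. The 3 pairs between E6.2 and E7.2 were at 0.174, 0.276 and 0.426, the last between their replicate 3 libraries. Not every pair was over 0.1, and the labels tie no number to a shared culture.

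Of all genes, the test called 41 in E7.2, 169 in E7.1, 163 in E6.2, 45 in E6.1, 70 for the mean of the clones, 1677 for E7 against E6, 173 for E6.2 against E6.1 and 82 for E7.2 against E7.1. DESeq2 called 254 in E7.2, 1157 in E7.1, 398 in E6.2, 155 in E6.1, 178 for the mean of the clones, 2684 for E7 against E6, 448 for E6.2 against E6.1 and 287 for E7.2 against E7.1; no filter gave 343 in E7.1, 74 in E6.1, 106 for the mean of the clones, 265 for E6.2 against E6.1 and 145 for E7.2 against E7.1; only the lines compared gave 18 in E7.2, 45 in E6.2, 111 in E6.1, 68 for E6.2 against E6.1 and 43 for E7.2 against E7.1, a setting the mean of the clones does not allow, since it uses all lines; and leaving out the 2 libraries gave 219 in E7.2, 2166 in E7.1, 323 in E6.2, 132 in E6.1, 166 for the mean of the clones, 4734 for E7 against E6 and 484 for E6.2 against E6.1. Leaving out single libraries gave 14 to 32 in E7.2, 30 to 968 in E7.1, 83 to 214 in E6.2, 28 to 37 in E6.1, 26 to 97 for the mean, 399 to 3847 for E7 against E6, 105 to 222 for E6.2 against E6.1 and 46 to 57 for E7.2 against E7.1.

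Of the role group medians (log2), 479 stayed within the spread and 18 did not. Without the 2 libraries they were 0.16 for end joining in E6.2, -0.15 for annealing and strand exchange, 0.13 for resection and dissolution and 0.31 for Fanconi anemia in E7.2, and 0.21 for resection and dissolution between E7 and E6. Without single libraries, end joining ranged from -0.011 to 0.20 in E6.2, -0.25 to 0.011 in E7.1, -0.23 to 0.045 in E7.2 and -0.43 to -0.090 between E7 and E6, and in E7.2 annealing and strand exchange from -0.19 to 0.099, resection and dissolution from -0.27 to 0.13 and Fanconi anemia from -0.25 to 0.31. The cause of these changes was not tested. The lowest count of a repair gene in any library was 76.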

Other observations

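Of the 68 further genes of the same pathways, none passed the test against parental cells or between clones of 1 exon, where at most 1.24% of all genes did. Those of smallest p were spread over the routes. In E7.1 *Swi5* and *Paxip1* were nearest to a call, with log2 fold changes of 0.49 and 0.71 and adjusted p = 0.0727 and 0.0727 (edgeR). In E7.2 *Cenps* and *Poll* were nearest to a call, with log2 fold changes of 0.50 and 0.47 and adjusted p = 0.296 and 0.303 (edgeR). In E6.1 *Kat5* and *Mcm9* were nearest to a call, with log2 fold changes of 0.45 and 0.26 and adjusted p = 0.600 and 0.737 (edgeR). In E6.2 *Shld2* and *Mad2l2* were nearest to a call, with log2 fold changes of -0.44 and 0.42 and adjusted p = 0.202 and 0.221 (edgeR). For the mean of the 4 clones *Swi5* and *Poll* were nearest to a call, with log2 fold changes of 0.26 and 0.29 and adjusted p = 0.437 and 0.527 (edgeR). Between E6.2 and E6.1 *Rpa1* and *Faap100* were nearest to a call, with log2 fold changes of -0.68 and 0.70 and adjusted p = 0.291 and 0.332 (edgeR). Between E7.2 and E7.1 *Paxx* and *Paxip1* were nearest to a call, with log2 fold changes of 1.10 and -0.54 and adjusted p = 0.151 and 0.275 (edgeR).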
